A study of Mus musculus with 15 samples.

Results

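Microglia, the resident macrophages of the brain, were followed here through 35 genes, all of which were present among the 15569 genes of the striatal expression table. The genes were taken by symbol from a list of microglial identity, complement and phagocyte oxidase genes. The striatum came from C57Bl/6J mouse pups at postnatal day 14 whose mothers had breathed aerosols during gestation. The libraries fell into 4 groups: 4 control libraries labelled as untreated, 3 after paraquat (a redox-cycling herbicide), 4 after titanium dioxide nanoparticles (TiO2), and 4 after a mixture of both. The sources used here give no dose, length of exposure, litter, sex or number of pups per library. Nothing in the labels ties each library to a separate pup, so the p-values rest on the spread between libraries, which may in part be technical.

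Microglia enter the brain early in development from yolk sac progenitors and then renew locally under signals through the Csf1r receptor, while Spi1, Irf8 and Sall1 maintain their identity. They prune synapses and clear debris using complement C1q, complement receptor 3 and the Trem2 to Tyrobp signalling pair. The phagocyte NADPH oxidase, whose membrane core is formed by the Cybb and Cyba proteins and whose cytosolic organiser is the Ncf1 protein, makes superoxide when phagocytes are activated.

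The deposited values, here called normalised reads, are whole reads over a size factor that differs between libraries. Recovered read totals lay between 8690925 and 14207513 per library, with paraquat 3 the deepest. None of the 10 medium spiny neuron markers, the neurons that define the striatum, was at 0 in any library, and Ppp1r1b ranged from 7955 to 12262 normalised reads. Of the 10 markers of border macrophages, which sit in the meninges and around vessels, 4 were in the table. They summed to 91.1 to 139 normalised reads per library, against 9761 to 12743 for the 35 microglial and oxidase genes. Pf4, Cbr2, Ms4a7 and Folr2 were among the border markers not measured, and the 35 genes include Mrc1, which is also high in border macrophages. Sums over such unlike lists do not measure the share of either cell type. In whole tissue, fewer microglia and less RNA per microglial cell cannot be told apart.

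Per kilobase of exon, the purinergic receptor gene P2ry12, which guides microglial processes to injury, had the highest control level at 734 ± 37.9 normalised reads per kb (SD, n = 4). It was followed by the Fc receptor gamma chain gene Fcer1g at 673 ± 102 and the complement gene C1qb at 548 ± 103, and the spreads of P2ry12 and Fcer1g overlap, as do those of Fcer1g and C1qb. C1qc at 290 ± 42.1 and the adaptor gene Tyrobp at 271 ± 30.5 came next and also do not separate beyond their spread. The fractalkine receptor gene Cx3cr1 stood at 231 ± 33.3 and the lysophospholipid receptor gene Gpr34 at 225 ± 9.51, again within one another's spread. At the other end, Itgam, which encodes the CD11b chain of complement receptor 3, stood at 7.36 ± 1.49 per kb and Cybb at 1.86 ± 0.563 per kb. Control spread was smallest for Gpr34 (coefficient of variation 4.23%) and largest for Lyz2, a lysozyme gene, at 45.3%. Reads of Lyz2 can be shared with its close paralog Lyz1, so its level is uncertain. Several members overlap a measured gene on the opposite strand: P2ry12 and P2ry13 lie within the span of Med12l, Gpr34 overlaps Cask, Csf1r overlaps Hmgxb3, Ncf1 overlaps Gtf2ird2 and Cx3cr1 overlaps Wdr48 and Gm33858. The sources used here do not say whether counting used strand, so reads of such pairs cannot be told apart. The annotated span of Cx3cr1 also overlaps the measured genes Gorasp1 and Csrnp1 on the same strand, which counting by strand would not separate.

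The 35 genes as a set were close to level across the groups, and their summed signal overlapped between all 4. It was 11217 ± 861 normalised reads (SD, n = 4) in control, 11240 ± 1309 (n = 3) after paraquat, 11821 ± 461 (n = 4) after TiO2 and 10814 ± 931 (n = 4) after the mixture. Against control, 2 of 35 members passed the test after paraquat, the transcription factor gene Sall1 upward and Gpr34 downward. That is 5.71% of members, where 10.4% of all 15556 tested genes passed (6.34% higher and 4.06% lower). After TiO2, 4 of 35 passed (11.4%, against 6.4% of all genes, 4.3% higher and 2.1% lower): Sall1, Tmem119 and Laptm5 upward and Cybb downward. After the mixture 0 of 35 passed, against 1.19% of all genes (1.12% higher and 0.0707% lower). A gene passed where limma gave an adjusted p under 0.05 over all genes.

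The median log2 fold change of the members was -0.02 after paraquat, with 17 above 0 and 18 below, 0.06 after TiO2, with 24 above and 11 below, and -0.01 after the mixture, with 15 above and 20 below. Over all genes tested the 3 medians were -0.01. The member medians moved with single libraries: the paraquat median was 0.10 without control 2 (22 above 0 and 13 below) and -0.16 without paraquat 3 (11 above and 24 below), and the TiO2 median was between 0.0066 without control 1 (18 above and 17 below) and 0.16 without control 2. The mixture median was between -0.087 without mixture 3 and 0.016 without control 2. All 3 comparisons use the same control libraries. The libraries of the 2 groups did not overlap for 4 members after paraquat (11.4%, against 21.2% of all genes), namely P2ry12 and Gpr34 lower and Selplg and Sall1 higher. After TiO2 they did not overlap for 6 members (17.1%, against 12.5%), with Tmem119, Cd68, Laptm5, Sall1 and Cyba higher and Cybb lower. After the mixture they did not overlap for 2 (5.71%, against 7.75%), with P2ry13 lower and Itgam higher. An unadjusted p under 0.05 was reached by 11 members after paraquat (31.4%, against 26.6% of all genes) and 11 after TiO2 (31.4%, against 23.3%). For the mixture, 4 members had an unadjusted p under 0.05 (11.4%, against 12.2% of all genes), edgeR on the recovered reads called 0 and DESeq2 called 1, P2ry13, of the 34 for which it gave an adjusted p. Over all genes DESeq2 called 300 after the mixture, where limma called 185.

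Single libraries carried weight in these counts. The paraquat count was 0 without paraquat 3, 5 without paraquat 2, and 1 without paraquat 1 or any 1 of control 1 to 4. The TiO2 count was 0 without control 1, TiO2 2 or TiO2 3, 2 without control 2, control 3, control 4 or TiO2 1, and 4 without TiO2 4. Control 2 was the highest of all 15 libraries for 13 members and paraquat 3 for 7, whereas mixture 1 was the lowest for 8 and control 1 for 6.

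**Figure D1:**
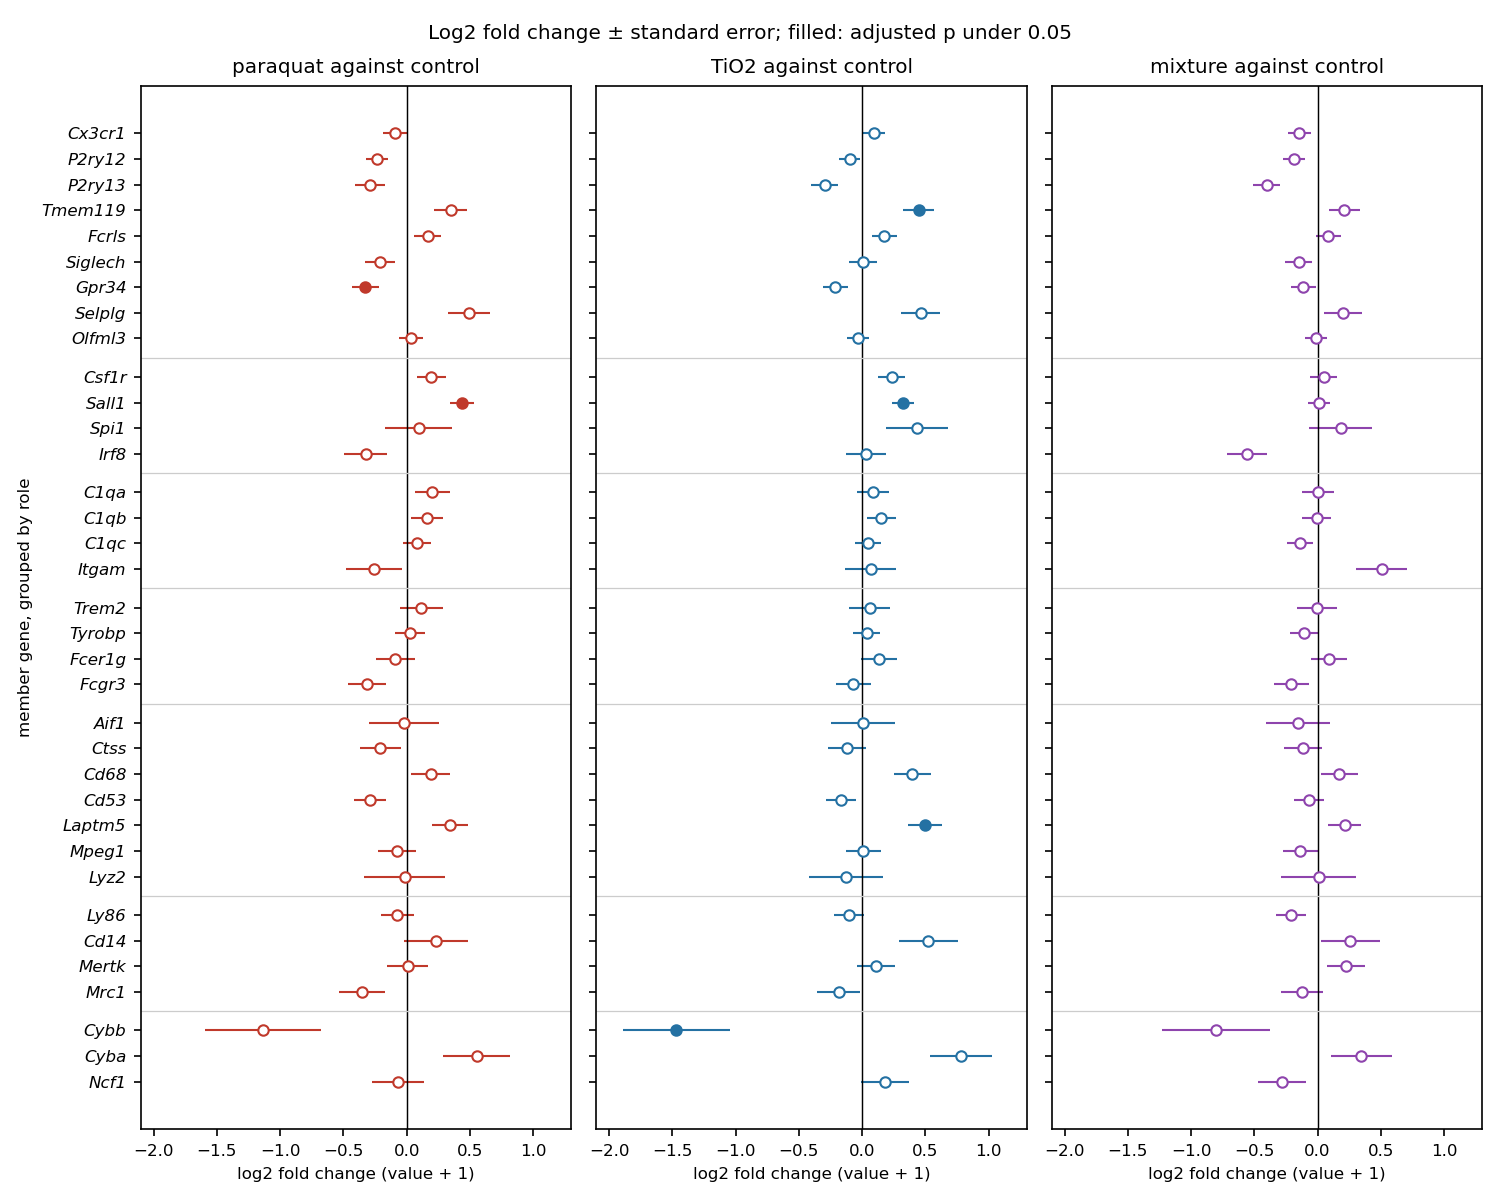
Log2 fold change (horizontal axis, log2 of the value plus 1) with its standard error for the 35 genes, grouped by role on the vertical axis, in the 3 comparisons with control; filled points passed the adjusted p threshold. Sall1 and Gpr34 are filled after paraquat, Sall1, Tmem119, Laptm5 and Cybb after TiO2, and none after the mixture.

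Among the growth factor receptor and transcription factor genes, Sall1 rose after each single exposure and stood at the control level in the mixture. Sall1 encodes a zinc finger factor that, among brain macrophages, marks microglia, and it is also active in neural progenitors. The gene lies on the minus strand of chromosome 8 (GRCm38, 89027235 to 89044162). The RefSeq window from 250 bases before to 50 after its most upstream start (GRCm38.p6, chr8:89044113-89044412, minus strand) is shown because this gene gave the most stable call; it is printed in lower case because it holds none of the motifs searched below.
Sall1: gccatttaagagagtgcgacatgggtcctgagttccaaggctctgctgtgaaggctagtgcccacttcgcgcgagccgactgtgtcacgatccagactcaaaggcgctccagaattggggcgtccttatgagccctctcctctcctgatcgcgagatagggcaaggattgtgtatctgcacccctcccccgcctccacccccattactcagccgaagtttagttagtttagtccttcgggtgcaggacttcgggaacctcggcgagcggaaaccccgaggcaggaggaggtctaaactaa
Sall1 counted 405, 399, 481 and 509 in control, 584, 557 and 676 after paraquat, 555, 593, 556 and 528 after TiO2, and 453, 428, 477 and 443 after the mixture. All paraquat and all TiO2 libraries were above all control libraries and above all mixture libraries. The log2 fold change was 0.43 ± 0.095 after paraquat (SE; adjusted p = 0.00605), 0.32 ± 0.088 after TiO2 (adjusted p = 0.0281) and 0.012 ± 0.088 after the mixture (adjusted p = 0.978). The paraquat call did not hold without paraquat 3 (adjusted p = 0.0504), and the TiO2 call did not hold in 5 leave-one-out fits, with adjusted p of 0.109 (control 1), 0.0615 (control 2), 0.0568 (TiO2 1), 0.0956 (TiO2 2) and 0.0630 (TiO2 3).

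Csf1r, the receptor for the survival factors Csf1 and Il34, counted 557, 764, 609 and 624 in control, 698, 608 and 901 after paraquat, 706, 756, 783 and 742 after TiO2, and 629, 623, 766 and 619 after the mixture. Paraquat 3 was the highest of all libraries, control 2 stood above the other control libraries, and the groups overlap. Its log2 fold change was 0.23 ± 0.11 after TiO2 (adjusted p = 0.185) and did not pass in any comparison. Irf8, an interferon regulatory factor needed for microglial development, averaged 85.2 ± 13.6 (SD, n = 4) in control, 67.4 ± 5.74 (n = 3) after paraquat, 87.2 ± 16.4 (n = 4) after TiO2 and 57.4 ± 8.98 (n = 4) after the mixture. The mixture difference, -0.56 ± 0.16, did not pass (adjusted p = 0.0829), but passed without control 1 (adjusted p = 0.0484) and after GC correction (0.0437). Spi1, which encodes the PU.1 factor, averaged between 30.2 and 39.6 in the 4 groups and did not pass.

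Of the 9 identity receptor and surface genes, Tmem119 rose after TiO2 and Gpr34 fell after paraquat. Tmem119 encodes a membrane protein used as a microglial marker and lies on the minus strand of chromosome 5 (113793729 to 113800516). It counted 149, 178, 159 and 179 in control, 212, 179 and 247 after paraquat, 201, 232, 261 and 215 after TiO2, and 160, 209, 233 and 173 after the mixture. Every TiO2 library was above every control library, whereas the mixture and the paraquat libraries overlap with control. The log2 fold change was 0.45 ± 0.12 after TiO2 (adjusted p = 0.0280) and 0.35 ± 0.13 after paraquat (adjusted p = 0.0917). The TiO2 call did not hold in 4 leave-one-out fits, with adjusted p of 0.101 (control 1), 0.0647 (control 3), 0.0763 (TiO2 2) and 0.111 (TiO2 3), nor after correction for GC content (adjusted p = 0.117).

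Gpr34 lies on the plus strand of the X chromosome (13632089 to 13640858). It counted 485, 488, 447 and 460 in control, 335, 422 and 369 after paraquat, 447, 407, 346 and 428 after TiO2, and 388, 516, 438 and 405 after the mixture. All 3 paraquat libraries were below all control libraries, and the TiO2 and mixture libraries reach into the control range. The log2 fold change was -0.33 ± 0.11 after paraquat (adjusted p = 0.0486) and -0.21 ± 0.098 after TiO2 (adjusted p = 0.189). The paraquat call held without paraquat 2 but not in the other 6 leave-one-out fits, with adjusted p of 0.108 (control 1), 0.0722 (control 2), 0.0582 (control 3), 0.0801 (control 4), 0.232 (paraquat 1) and 0.118 (paraquat 3). Nor did it hold after GC correction, where the change was -0.17 (adjusted p = 0.295), or with only the paraquat and control libraries in the fit (adjusted p = 0.0513).

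Selplg, the gene of the selectin ligand PSGL-1, counted 263, 346, 283 and 341 in control, 434, 369 and 503 after paraquat, 378, 461, 535 and 341 after TiO2, and 299, 407, 439 and 288 after the mixture. The paraquat libraries lie above the control libraries, whereas TiO2 4 and mixture 1 and 4 lie within the control range. Neither the paraquat difference of 0.50 ± 0.17 (adjusted p = 0.0614) nor the TiO2 difference of 0.46 ± 0.15 (adjusted p = 0.0778) passed. Cx3cr1, the receptor through which neuronal Cx3cl1 signals to microglia, counted 916, 1257, 988 and 993 in control, 926, 922 and 1057 after paraquat, 1048, 1153, 1178 and 1027 after TiO2, and 846, 1007, 986 and 905 after the mixture. Control 2 was its highest library, and each exposed group overlaps with control. P2ry13, a further purinergic receptor gene, averaged 336 ± 25.1 (SD, n = 4) in control and 254 ± 29.3 (n = 4) after the mixture, a log2 difference of -0.40 ± 0.11 that did not pass (adjusted p = 0.0699) but passed by DESeq2 (adjusted p = 0.0428) and with only these 2 groups in the fit (0.0398). Its means after paraquat and TiO2 were 275 ± 38.0 (n = 3) and 274 ± 37.8 (n = 4). For P2ry12 the log2 fold change was -0.23 ± 0.090 after paraquat and did not pass (adjusted p = 0.0942). The lectin gene Siglech, the Fc receptor-like gene Fcrls and Olfml3, which encodes a secreted olfactomedin protein, did not pass in any comparison.

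Among the 7 lysosomal and pan-macrophage genes, Laptm5 rose after TiO2. Laptm5 encodes a lysosomal membrane protein and lies on the plus strand of chromosome 4 (130913125 to 130936141). It counted 421, 480, 544 and 512 in control, 529, 507 and 881 after paraquat, 631, 691, 700 and 735 after TiO2, and 541, 519, 665 and 547 after the mixture. All TiO2 libraries were above all control libraries, and paraquat 3 was the highest library of the series while paraquat 1 and 2 were within the control range. The log2 fold change was 0.50 ± 0.13 after TiO2 (adjusted p = 0.0277) and 0.34 ± 0.14 after paraquat (adjusted p = 0.127). The TiO2 call did not hold in 6 of 8 leave-one-out fits, with adjusted p of 0.0989 (control 1), 0.0519 (control 2), 0.0542 (control 4), 0.0686 (TiO2 2), 0.0983 (TiO2 3) and 0.0607 (TiO2 4), nor after GC correction (adjusted p = 0.122).

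Ctss, the gene of the lysosomal protease cathepsin S, counted 247, 329, 224 and 216 in control, 204, 178 and 280 after paraquat, 221, 242, 188 and 281 after TiO2, and 189, 263, 238 and 241 after the mixture. Control 2 was the highest and paraquat 2 the lowest, and all groups overlap. Cd68, a lysosomal glycoprotein gene, averaged 195 ± 21.4 (SD, n = 4) in control and 258 ± 39.2 (n = 4) after TiO2, where its log2 difference of 0.40 ± 0.15 did not pass (adjusted p = 0.103). Aif1 (the Iba1 protein used to stain microglia), the tetraspanin gene Cd53, the perforin-like gene Mpeg1 and Lyz2 did not pass in any comparison, with log2 fold changes against control between -0.29 (Cd53 after paraquat) and 0.0090 (Lyz2 after the mixture).

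The complement genes did not pass in any comparison. C1qa, which encodes the A chain of C1q, the recognition molecule of the classical pathway, counted 135, 206, 163 and 139 in control, 174, 168 and 207 after paraquat, 153, 203, 159 and 161 after TiO2, and 165, 171, 154 and 146 after the mixture. Control 2, paraquat 3 and TiO2 2 were the highest, at 203 or above, and the groups overlap. The log2 fold changes of C1qa, C1qb and C1qc against control lay between -0.14 (C1qc, mixture) and 0.20 (C1qa, paraquat). Itgam averaged 37.0 ± 7.48 (SD, n = 4) in control and 52.4 ± 7.21 (n = 4) after the mixture, with a log2 difference of 0.51 ± 0.20 that did not pass (adjusted p = 0.279). All 4 mixture libraries were above all control libraries for Itgam.

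The Trem2 and Fc receptor group did not pass either. Trem2, a lipid-sensing receptor that signals through Tyrobp, counted 57.0, 87.7, 57.5 and 54.1 in control, 73.4, 68.0 and 63.2 after paraquat, 77.8, 55.9, 62.2 and 67.6 after TiO2, and 71.3, 52.1, 67.6 and 60.7 after the mixture. Control 2 was the highest of all libraries, and the groups overlap. The log2 fold changes of Trem2 and Tyrobp against control lay between -0.11 (Tyrobp, mixture) and 0.12 (Trem2, paraquat). Fcer1g and the low-affinity IgG receptor gene Fcgr3 also did not pass, the largest difference from control being -0.31 ± 0.15 for Fcgr3 after paraquat (adjusted p = 0.172).

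In the pattern recognition and uptake group, Cd14, a co-receptor for bacterial lipopolysaccharide, counted 31.1, 36.1, 23.4 and 23.6 in control, 27.8, 25.4 and 51.4 after paraquat, 42.5, 39.6, 31.1 and 52.7 after TiO2, and 31.7, 28.2, 48.9 and 29.8 after the mixture. Paraquat 3, TiO2 4 and mixture 3 were the highest, and the groups overlap. Its log2 fold change after TiO2 was 0.52 ± 0.23 (adjusted p = 0.169). Ly86 (MD-1), the engulfment receptor gene Mertk and the mannose receptor gene Mrc1, which is also high in border macrophages, did not pass in any comparison.

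Of the 3 phagocyte oxidase genes, Cybb fell after TiO2, whereas Cyba was above control in every TiO2 library without passing the test and Ncf1 did not pass. Cybb encodes gp91phox, the catalytic subunit, and lies on the minus strand of the X chromosome (9435252 to 9487771). Its promoter window in RefSeq (GRCm38.p6, chrX:9469275-9469574, minus strand), which falls inside the longer GENCODE span of the gene, is shown with that of Laptm5 (chr4:130913066-130913365, plus strand) because both were called after TiO2, in opposite directions, and both hold a match to GAGGAA, a core that the macrophage factor PU.1 can bind. Capitals mark GAGGAA or its reverse complement TTCCTC in both and, in Cybb, a motif of interferon regulatory factors, GAAA and GAAA with any 2 bases between them, or its reverse complement, built from TTTC.
Cybb: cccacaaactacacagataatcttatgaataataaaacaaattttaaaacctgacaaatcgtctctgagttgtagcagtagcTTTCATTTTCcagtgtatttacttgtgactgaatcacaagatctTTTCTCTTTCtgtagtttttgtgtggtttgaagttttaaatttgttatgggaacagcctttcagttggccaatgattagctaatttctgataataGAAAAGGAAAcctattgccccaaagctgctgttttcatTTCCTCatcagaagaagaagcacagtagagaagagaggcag
Laptm5: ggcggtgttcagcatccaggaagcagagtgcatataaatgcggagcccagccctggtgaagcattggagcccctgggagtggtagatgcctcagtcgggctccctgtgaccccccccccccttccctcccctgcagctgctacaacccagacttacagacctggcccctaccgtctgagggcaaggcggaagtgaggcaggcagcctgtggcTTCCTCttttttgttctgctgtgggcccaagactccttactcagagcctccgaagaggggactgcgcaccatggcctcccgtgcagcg
Of the 35 genes, 27 had promoters in the RefSeq table, 31 windows in all, and 16 of these windows (51.6%) held GAGGAA on either strand, against 28.3% of all 32851 promoters and 26.2% of those of genes in the expression table. The interferon regulatory factor motif, searched on both strands, was held by 4 windows (12.9%; Aif1, Ctss, Cybb and Ncf1), against 3.44% of all promoters. GAGGAAGT, a longer form that contains GAGGAA, was held by 3 (9.68%; C1qc, Cd53 and Ctss), against 3.2%. A match is a description of the letters only.

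Cybb counted 8.29, 15.5, 10.6 and 8.85 in control, 3.97, 2.03 and 8.56 after paraquat, 3.11, 3.05, 2.01 and 4.97 after TiO2, and 2.97, 4.34, 6.24 and 11.3 after the mixture. All TiO2 libraries were below all control libraries, and paraquat 3, mixture 4 and the control libraries share a range. The log2 fold change was -1.47 ± 0.42 after TiO2 (adjusted p = 0.0371), -1.13 ± 0.46 after paraquat (adjusted p = 0.111) and -0.80 ± 0.42 after the mixture (adjusted p = 0.464). These rest on few reads: 42 over the 4 control libraries (95% exact Poisson interval 30.3 to 56.8), 19 after paraquat (11.4 to 29.7), 13 after TiO2 (6.92 to 22.2) and 24 after the mixture (15.4 to 35.7). The depth-scaled ratio to control was 0.305 after TiO2 (0.150 to 0.579), 0.501 after paraquat (0.275 to 0.881) and 0.575 after the mixture (0.333 to 0.972), with intervals that cover counting error only. The TiO2 call held without TiO2 4 but not in the other 7 leave-one-out fits, with adjusted p of 0.0644 (control 1), 0.0804 (control 2), 0.0698 (control 3), 0.0659 (control 4), 0.0658 (TiO2 1), 0.0825 (TiO2 2) and 0.123 (TiO2 3), nor after GC correction (adjusted p = 0.0582).

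Cyba encodes p22phox, the partner that stabilises the Cybb protein, and lies on the minus strand of chromosome 8 (122424776 to 122432930). It counted 16.6, 18.6, 16.0 and 14.7 in control, 19.8, 17.3 and 42.8 after paraquat, 28.0, 25.4, 30.1 and 32.8 after TiO2, and 16.8, 18.4, 25.0 and 25.7 after the mixture. All TiO2 libraries were above all control libraries, and paraquat 3 was the highest of the series while paraquat 2 lay within the control range. The log2 fold change was 0.78 ± 0.24 after TiO2 (adjusted p = 0.0527), 0.55 ± 0.26 after paraquat (adjusted p = 0.178) and 0.35 ± 0.24 after the mixture (adjusted p = 0.619). Summed reads of Cyba were 64 in control, 102 after paraquat (65 of them from paraquat 3), 115 after TiO2 and 83 after the mixture. The depth-scaled ratio to control was 1.77 (1.28 to 2.45) after paraquat, 1.77 (1.29 to 2.44) after TiO2 and 1.31 (0.931 to 1.84) after the mixture. These intervals too cover counting error only. Ncf1, the gene of p47phox, counted 63.2, 53.7, 39.4 and 51.1 in control, 35.7, 53.8 and 59.9 after paraquat, 64.3, 73.2, 45.2 and 53.7 after TiO2, and 41.6, 43.4, 49.9 and 33.9 after the mixture. The groups overlap, and its log2 fold change was 0.18 ± 0.19 after TiO2 and -0.28 ± 0.19 after the mixture.

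**Figure D2:**
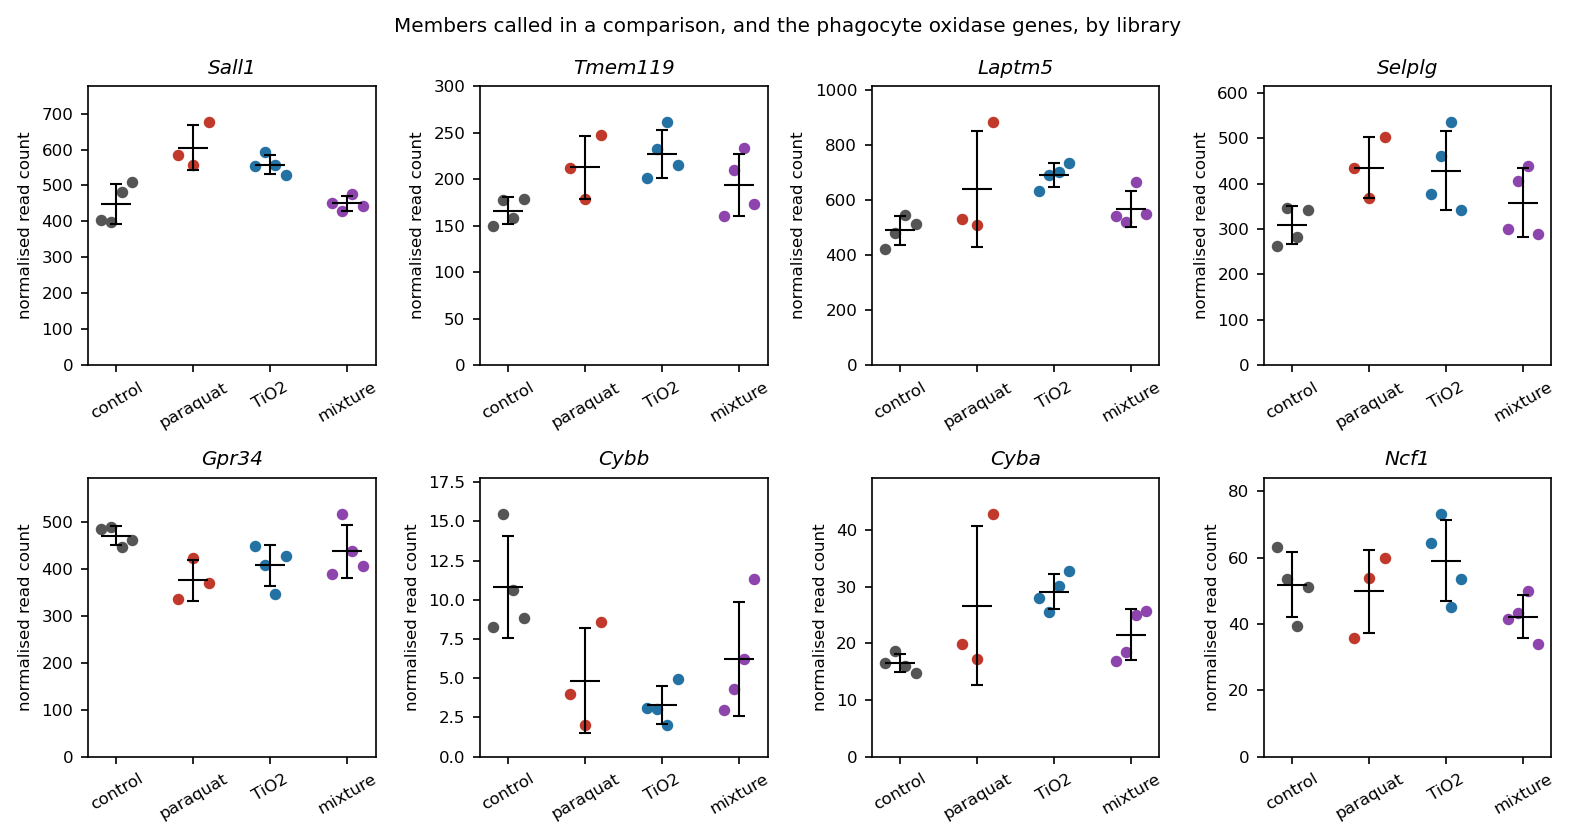
Normalised reads by library (vertical axes, from 0) in the 4 groups for the genes called in a comparison and the 3 oxidase genes; points are libraries, long bars are means and whiskers are SD. Sall1 is above control in every paraquat and TiO2 library and back in the control range in the mixture, and Cybb is below 5 in every TiO2 library.

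The design also allows a test of whether the mixture differs from the sum of the single exposures on the log2 scale (mixture minus paraquat minus TiO2 plus control). By this interaction, 4 of 35 members passed, all with the mixture below the sum (11.4%, against 11.8% of all genes, 5.41% higher and 6.36% lower): Sall1, Selplg, Tmem119 and Laptm5. The interaction was -0.74 ± 0.13 for Sall1 (adjusted p = 0.00145) and -0.76 ± 0.23 for Selplg (adjusted p = 0.0364). It was -0.58 ± 0.18 for Tmem119 (adjusted p = 0.0371) and -0.63 ± 0.20 for Laptm5 (adjusted p = 0.0414). Cybb (1.80 ± 0.62, adjusted p = 0.0594) and Gpr34 (0.43 ± 0.14, adjusted p = 0.0535) had values of the opposite sign that did not pass. In all, 10 members reached an unadjusted p under 0.05 (28.6%, against 28.2% of all genes). Of the 4 calls, that of Sall1 held in all 22 alternative fits, with a highest adjusted p of 0.00612, and the other 3 did not.

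The Tmem119 interaction did not hold under GC correction (adjusted p = 0.302), nor in 8 leave-one-out fits, with adjusted p of 0.0777 (control 1), 0.0581 (control 3), 0.0786 (paraquat 1), 0.115 (paraquat 3), 0.0651 (TiO2 2), 0.0830 (TiO2 3), 0.0797 (mixture 1) and 0.0783 (mixture 4). For Laptm5 it did not hold under GC correction (adjusted p = 0.241), nor in 10 leave-one-out fits, with adjusted p of 0.0832 (control 1), 0.0598 (control 2), 0.0585 (control 4), 0.102 (paraquat 3), 0.0677 (TiO2 2), 0.0917 (TiO2 3), 0.0638 (TiO2 4), 0.0699 (mixture 1), 0.0801 (mixture 2) and 0.0756 (mixture 4). For Selplg it did not hold under GC correction (adjusted p = 0.0637), nor in 8 leave-one-out fits, with adjusted p of 0.0734 (control 1), 0.0613 (control 3), 0.0820 (paraquat 1), 0.0964 (paraquat 3), 0.0685 (TiO2 2), 0.0821 (TiO2 3), 0.0663 (mixture 1) and 0.0708 (mixture 4). The count of members called by the interaction was 8 without paraquat 2, 5 without control 2, TiO2 1 or TiO2 4, and 4 without mixture 3. It was 3 without control 4, mixture 1 or mixture 2, and 2 without control 3, paraquat 1 or paraquat 3. It was 1 without control 1, TiO2 2, TiO2 3 or mixture 4.

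When the exposed groups were set against each other, no member passed by limma. For the mixture against paraquat 0 of 35 passed (against 0.00643% of all genes), 2 had an unadjusted p under 0.05 (5.71%, against 14.4%), edgeR called 0 and DESeq2 called 1, Sall1, of the 15 members for which it gave an adjusted p. Over all genes DESeq2 called 138 in this comparison, where limma and edgeR called 1 each. The Sall1 difference was -0.42 ± 0.095 (adjusted p = 0.109), and the libraries of the 2 groups did not overlap for 2 members (5.71%, against 13.8% of all genes), Sall1 lower and Itgam higher in the mixture. For the mixture against TiO2 0 of 35 passed (against 0% of all genes), 6 had an unadjusted p under 0.05 (17.1%, against 11.4%), edgeR called 0, and DESeq2 called 0 of the 23 for which it gave an adjusted p. Its member median was -0.14, with 26 of 35 below 0, and Cx3cr1 and Sall1 were lower in every mixture library than in every TiO2 library (5.71% not overlapping, against 6.71%). The smallest p was that of Irf8, with a difference of -0.59 ± 0.16 (adjusted p = 0.182). For paraquat against TiO2 0 of 35 passed (against 0%), 1 had an unadjusted p under 0.05 (2.86%, against 6.41%), edgeR called 0, DESeq2 called 0 of the 34 for which it gave an adjusted p, and no member's libraries were separate (against 5.81%). Over all genes DESeq2 called 55 for the mixture against TiO2 and 15 for paraquat against TiO2, where limma and edgeR called 0.

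Genes that act with the members were read from further lists. Among 24 measured ligands and partners of microglial receptors, 5 rose and 0 fell after paraquat and after TiO2 (20.8% each, where 6.34% and 4.3% of all genes rose), and 0 passed after the mixture. Their median log2 fold changes were 0.12, 0.12 and 0.01. Tgfb1, a signal that maintains microglial identity, averaged 88.9 ± 19.1 (SD, n = 4) in control, 143 ± 33.4 (n = 3) after paraquat, 153 ± 4.12 (n = 4) after TiO2 and 117 ± 21.95 (n = 4) after the mixture. It rose by 0.68 ± 0.17 after paraquat (adjusted p = 0.0128; 0.0927 without paraquat 3) and by 0.80 ± 0.15 after TiO2 (adjusted p = 0.00301). Cx3cl1, the neuronal ligand of Cx3cr1, rose by 0.36 ± 0.086 after paraquat (adjusted p = 0.00988; 0.0502 without paraquat 3) and by 0.33 ± 0.080 after TiO2 (adjusted p = 0.0134; 0.0552 without control 1 and 0.0591 without TiO2 3). Sirpa, the receptor of the don't-eat-me signal Cd47, rose by 0.33 ± 0.077 (adjusted p = 0.00971) and 0.34 ± 0.071 (adjusted p = 0.00558), and is also expressed by neurons. Clu, an extracellular chaperone gene, rose by 0.49 ± 0.13 after paraquat (adjusted p = 0.0193), and did not pass without control 1 (0.0602) or paraquat 3 (0.104). Gas6, a bridging ligand of Mertk, rose by 0.36 ± 0.094 after TiO2 (adjusted p = 0.0229), a call lost in 5 leave-one-out fits, with adjusted p of 0.0714 (control 1), 0.0709 (control 4), 0.0529 (TiO2 1), 0.0570 (TiO2 2) and 0.0621 (TiO2 3).

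Of 45 other microglial genes measured, 2 rose after paraquat (4.44%, against 6.34% of all genes), 3 after TiO2 (6.67%, against 4.3%) and 0 after the mixture, and none fell. Their log2 fold changes lay above 0 for 29, 36 and 19 of the 45. Fyb, an adaptor gene, averaged 40.4 ± 2.85 (SD, n = 4) in control. It rose to 76.6 ± 8.56 (n = 3) after paraquat, by 0.90 ± 0.18 (adjusted p = 0.00266). After TiO2 it rose to 75.5 ± 5.81 (n = 4), by 0.89 ± 0.16 (adjusted p = 0.00194). Both Fyb calls held in every alternative fit run. Bin2, which encodes a membrane-bending protein, rose by 0.73 ± 0.17 after TiO2 (adjusted p = 0.0121, and 0.0552 without control 1).

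Of 16 other complement and complement-related genes measured, 2 rose after each single exposure (12.5%, against 6.34% of all genes after paraquat and 4.3% after TiO2) and 0 passed after the mixture. The genes called were Sez6l2 and Sez6 after paraquat, and Sez6l2 and C1ql1 after TiO2. The list held 28 genes, and C2, C3, C4a, Cfb, C1ra and C1s1 were among those not in the expression table. These shares therefore do not describe the complement cascade itself. Sez6l2, a neuronal gene of the Sez6 family, which can restrain complement, rose by 0.47 ± 0.10 after paraquat (adjusted p = 0.00537; 0.0507 without paraquat 3) and 0.43 ± 0.094 after TiO2 (adjusted p = 0.00853). Its relative Sez6 rose by 0.24 ± 0.077 after paraquat (adjusted p = 0.0444), a call lost in all 7 leave-one-out fits, with adjusted p of 0.121 (control 1), 0.0669 (control 2), 0.0519 (control 3), 0.0598 (control 4), 0.2005 (paraquat 1), 0.0537 (paraquat 2) and 0.0691 (paraquat 3), by edgeR (0.0554) and with only these 2 groups in the fit (0.0825). C1ql1, a synaptic C1q-like gene outside the complement cascade, rose by 0.67 ± 0.15 after TiO2 (adjusted p = 0.00892). Of 4 other oxidase genes measured, Rac2, the small GTPase that activates the phagocyte oxidase, rose by 0.54 ± 0.16 after TiO2 (adjusted p = 0.0433), from 75.5 ± 9.95 to 110 ± 19.9 (SD, n = 4 each). That call did not hold in 6 leave-one-out fits, with adjusted p of 0.0975 (control 1), 0.0559 (control 3), 0.145 (control 4), 0.116 (TiO2 2), 0.0512 (TiO2 3) and 0.109 (TiO2 4).

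Of 26 genes listed for activated or disease-associated microglia 11 were measured, and Spp1, Cst7, Gpnmb, Lgals3, Il1b and Tnf were among those not in the table. After paraquat Cd9 and Ctsd rose (18.2%, against 6.34% of all genes) and Lpl fell (9.09%, against 4.06%). After TiO2 or the mixture 0 of the 11 passed (against 6.4% and 1.19% of all genes). Lpl, which encodes lipoprotein lipase, fell by 0.45 on the log2 scale (SE 0.11, adjusted p = 0.0128), from 1249 ± 62.4 (SD, n = 4) to 914 ± 51.2 (n = 3). Which cells of the whole tissue gave the Lpl signal was not tested, so its fall cannot be assigned to microglia. Cd9, a tetraspanin gene that oligodendrocytes also express, rose by 0.34 ± 0.080 (adjusted p = 0.00954; 0.0537 without paraquat 1). Ctsd, the gene of the lysosomal protease cathepsin D, rose by 0.49 ± 0.13 (adjusted p = 0.0255), a call lost in 4 leave-one-out fits, with adjusted p of 0.0654 (control 1), 0.0646 (control 4), 0.134 (paraquat 1) and 0.117 (paraquat 3).

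Across the 35 genes, log2 fold changes moved with the GC content of the transcript. Pearson's r across genes, which are not independent replicates and share the same libraries, was 0.67 after paraquat, 0.62 after TiO2 and 0.42 after the mixture, against 0.39, 0.36 and 0.14 over all genes. Of the 18 members at or above the median GC of 51.0%, 14 lay above 0 after paraquat and 17 after TiO2, whereas of the 17 below it 3 and 7 did. Gpr34 (37.1%) and Cybb (42.4%) are low in GC, and Tmem119 (59.1%), Cyba (59.3%) and Laptm5 (56.0%) are high. With a smooth GC trend removed from each library, Sall1 (51.6%) was the single member called after paraquat, after TiO2 and by the interaction. Of the pathway genes named above, Cx3cl1 (adjusted p = 0.0512), Clu (0.0716), Sez6 (0.810) and Ctsd (0.0502) did not pass after paraquat once the trend was removed. After TiO2 the same held for Gas6 (0.107) and Rac2 (0.0779).

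**Figure D3:**
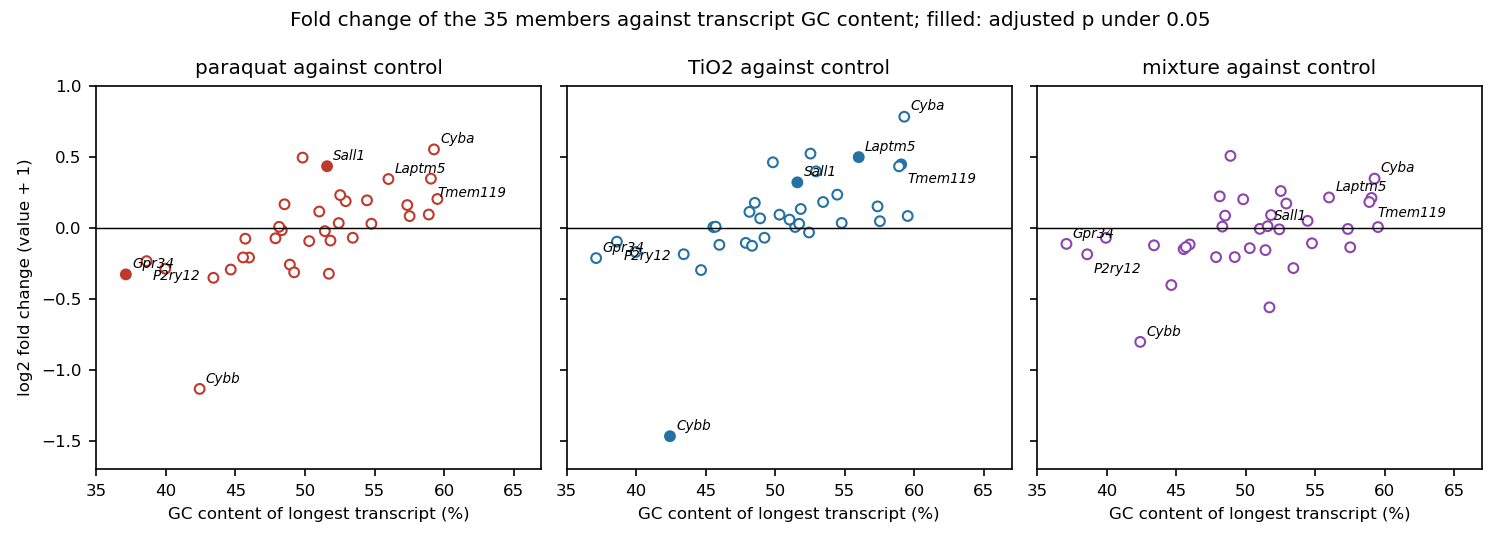
Log2 fold change of the 35 genes (vertical axis) against the GC content of the longest transcript in percent (horizontal axis) in the 3 comparisons with control; filled points passed the adjusted p threshold. Members of high GC content lie mostly above 0 after paraquat and TiO2, and Gpr34, P2ry12 and Cybb lie below 0.

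Markers of other cells also moved with the exposures. Oligodendrocyte markers (8 of 8 measured, none at 0 in any library) summed to 40653 to 60661 normalised reads in control, 89478 to 102795 after paraquat, 55739 to 87659 after TiO2 and 48176 to 83099 after the mixture. Precursor markers (6 of 6, none at 0) summed to 5455 to 6116 in control, 6920 to 8351 after paraquat, 6210 to 8456 after TiO2 and 5798 to 6711 after the mixture, so that, as for Sall1, both single-exposure groups lay above all control libraries. Astrocyte markers (8 of 8, none at 0) summed to 48058 to 54207 in control, 47622 to 58353 after paraquat, 53483 to 57602 after TiO2 and 47685 to 58805 after the mixture. Their mean log2 difference from the control mean was -0.056 to 0.081 in control, 0.19 to 0.39 after paraquat, 0.14 to 0.28 after TiO2 and -0.039 to 0.22 after the mixture, again with both single-exposure groups above all control libraries. Sox9, an astrocyte and progenitor transcription factor gene, rose by 0.64 ± 0.11 after paraquat (adjusted p = 0.000701) and 0.41 ± 0.098 after TiO2 (adjusted p = 0.0128), with an interaction of -0.86 ± 0.14 (adjusted p = 0.00116). Gja1 and Aldoc also rose after TiO2 and had a negative interaction that passed. Such an interaction was not limited to astrocyte markers. It passed for the precursor markers Sox10, Olig1, Gpr17 and Cspg4 and the oligodendrocyte markers Cnp, Ugt8a, Cldn11, Mbp and Mobp. The same held for the neuron markers Map2, Rbfox3, Tubb3 and Adora2a and the endothelial marker Cdh5, whereas that of Penk was positive. Of all genes, 6.36% passed with a negative and 5.41% with a positive interaction. General neuron markers (6 of 6, none at 0) summed to 23435 to 24778 in control and to 25263 to 29437 in the exposed libraries. Medium spiny neuron markers (10 of 10) summed to 87290 to 95812 in control, 75568 to 84226 after paraquat, 82262 to 90251 after TiO2 and 74363 to 87292 after the mixture. Cortical glutamatergic neuron markers (7 of 7, none at 0) summed to 754 to 1473 in control, 1500 to 5201 after paraquat, 1094 to 2608 after TiO2 and 2292 to 4128 after the mixture. By these sums all paraquat and all mixture libraries lay above all control libraries, whereas TiO2 overlapped with control. By the mean log2 difference from the control mean, paraquat (0.22 to 1.84) and TiO2 (-0.17 to 1.06) both overlapped with control (-0.82 to 0.35). Only the mixture (0.87 to 1.61) lay above all control libraries by both measures. Interferon response genes (19 of 20 measured, with Mx1 at 0 in 2 libraries, and 18 tested and summed) summed to 656 to 1580 in control and 554 to 842 in the exposed libraries, with control 4 and control 2 the highest. The part of these other markers in the Sall1, Tmem119, Laptm5, Gpr34 and Cybb results was not tested.

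**Figure D4:**
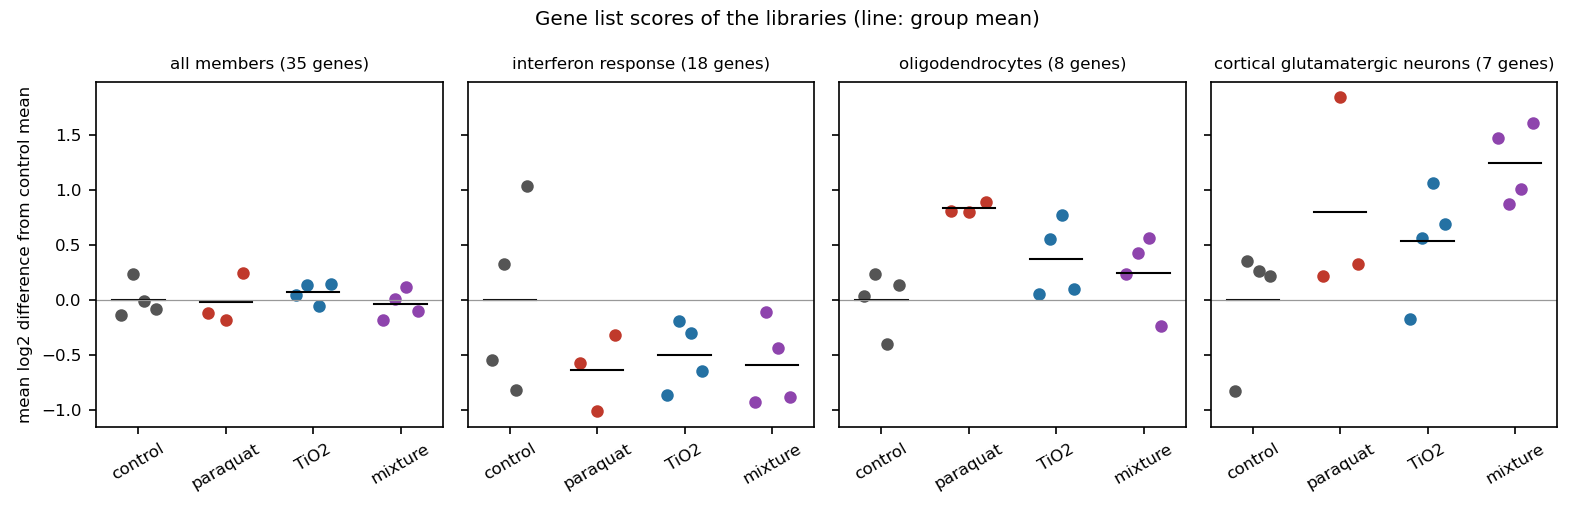
Mean log2 difference from the control mean (vertical axis) over the genes of each list, by library in the 4 groups, for the 35 microglial and oxidase genes, interferon response, oligodendrocyte and cortical glutamatergic neuron lists; points are libraries and lines are group means. The microglial score stays between -0.19 and 0.24 in all libraries, while the other lists spread more widely.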

How the data were processed

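Striatal RNA of 15 libraries was sequenced after library preparation with a total RNA SENSE kit on a NextSeq500, per the labels' protocols. The submitters' processing notes name Bowtie2, DESeq2 and the mm10 build; for the counter, the gene annotation and the use of strand, the answer is not given in the sources used here. The deposited table holds a normalised signal per gene and library: whole reads divided by 1 size factor per library, as 100% of values in every library were whole multiples of its smallest step within 0.001. Read totals recovered that way were 8690925 to 14207513, and 3 reads correspond to 1.98 to 3.25 normalised reads.

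The signal deposited by the authors was tested as log2(value + 1) with limma 3.58.1 (R 4.3.3; trend and robust empirical Bayes) in a single fit of all 15 libraries, with a mean for each group. Of 15569 genes 15556 passed edgeR's filterByExpr, among them all 35 members, and p-values were adjusted by Benjamini-Hochberg over all 15556, with 0.05 as the threshold. Alternatives were a pseudocount of 5, no filter, TMM factors, edgeR 4.0.16 (quasi-likelihood) and DESeq2 1.42.0 on recovered reads, only the groups compared, a replicate block, a lowess GC correction (span 0.3), and leaving out each library. Symbols were matched to GENCODE M21 (GRCm38) for position, exon length and GC content, and promoters are from RefSeq.

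All 35 members were named. Values in every library were given for members called in any of 7 comparisons, for the 3 oxidase genes and for the first listed gene of each role. Genes of the pathway lists were named where called against control, at most 4 per list and comparison by smallest p; 1 such gene is not reported here. The members and lists were chosen with earlier results of these data known. Same-numbered libraries did not deviate together (mean r 0.019 over 21 pairs, from -0.19 to 0.27), so replicate numbers were not used as pairs.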

Additional observations from a re-analysis of the deposited data

Results flagged for a closer look

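In 4 of the 105 groups of 4 libraries examined, 1 library stood apart from the other 3 by Dixon's 95% criterion, which chance meets in about 1 in 20 groups. Csf1r counted 766 normalised reads in mixture 3, against 619 to 629 in the other mixture libraries. Cd14 counted 48.9 in the same library, against 28.2 to 31.7. C1qa counted 203 in TiO2 2, against 153 to 161 in the other TiO2 libraries. Trem2 counted 87.7 in control 2, against 54.1 to 57.5 in the other control libraries.

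For 4 of 35 genes (11.4%, against 11.8% of all genes) the effect of TiO2 differed with and without paraquat by the interaction term of limma. The interaction on the log2 scale was -0.74 for Sall1 (adjusted p = 0.00145), -0.76 for Selplg (adjusted p = 0.0364), -0.58 for Tmem119 (adjusted p = 0.0371) and -0.63 for Laptm5 (adjusted p = 0.0414). The Sall1 call held in all 22 alternative fits, and those of Selplg, Tmem119 and Laptm5 in 13, 13 and 11 of them. All mixture libraries of Sall1 lay below all libraries of both single exposures.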

How the results depend on the processing

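No member's log2 fold change reversed a call under any alternative. The counts of members called after paraquat (2), after TiO2 (4) and by the interaction (4) were the same with a pseudocount of 5, without the filter and with TMM factors. After GC correction each of the 3 counts was 1, and the mixture count was 1 instead of 0. With only the groups compared the TiO2 count was 7 and the mixture count 1, and with DESeq2 the mixture count and the mixture against paraquat count were 1 each. DESeq2 gave no adjusted p for 3 members after paraquat, 4 after TiO2 (Cybb among them), 1 after the mixture and 6 for the interaction. With the replicate block, which the pairing check did not support (4 of 15 libraries deviated most like one of their own number), the counts were 4 after paraquat, 7 after TiO2 and 1 after the mixture, and the paraquat call of Sez6 did not hold (adjusted p = 0.0621). Leaving out 1 library gave 0 to 5 after paraquat, 0 to 4 after TiO2, 0 to 1 after the mixture, 0 for the mixture against paraquat, for the mixture against TiO2 and for paraquat against TiO2, and 1 to 8 for the interaction. Over all genes, the mixture against control count was 185 by limma, 300 by DESeq2 and 290 with the replicate block. The mixture against paraquat count over all genes was 1 by limma and 138 by DESeq2. Depth limits Cybb most, with 2 to 15 reads per library.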
